A study of Mus musculus with 37 samples.

Results

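The Ly49 receptors of uterine NK (uNK) cells were followed in 10 genes, Klra1 to Klra10, which encode Ly49A to Ly49J in the order of their numbers. They were taken by name from the 53700 genes counted in each library, and all 10 had a count. Of these, 8 encode inhibitory receptors and 2, Klra4 and Klra8, encode activating receptors. The 37 RNA-seq libraries came from live NKp46+ uNK cells of the pregnant uterus at gestation day 9.5 to 10.5, sorted by surface Ly49C/I and NKG2A. From WT C57BL6 mice there were 9 libraries of cells without Ly49C/I and NKG2A (called uneducated), 9 of NKG2A+ Ly49C/I- cells and 6 of Ly49C/I+ NKG2A- cells. From mice labelled NKG2A KO C57BL6 there were 8 libraries of uneducated cells and 5 of Ly49C/I+ NKG2A- cells. Cells with both receptors were not collected, so NKG2A+ cells here are those that lack surface Ly49C/I. Whether libraries of a group came from separate animals or pools is not stated in the labels, and p-values measure the spread between these libraries, which may be technical.

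Ly49 receptors are lectin-like dimers on mouse NK cells, and most of them bind classical MHC class I. Each NK cell transcribes its own subset of the Ly49 genes, so that a bulk level mixes how many cells use a gene with how much RNA each of them makes, and these cannot be told apart here. Inhibitory members carry a tyrosine-based inhibitory motif (ITIM) near the start of the protein and recruit phosphatases such as SHP-1. Activating members lack it and pair with the adaptor DAP12, the product of Tyrobp. In C57BL/6 mice Ly49C and Ly49I are the receptors stained by the Ly49C/I antibody, Ly49C binds the MHC class I of this strain, and binding of self MHC class I by Ly49C or NKG2A is known to educate NK cells. Ly49H is known for binding a protein of mouse cytomegalovirus.

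The first 45 coding bases of the 10 members show the difference between the classes. They were read from the GENCODE M21 transcripts, 5′ to 3′, and capitals mark codon 8.
Klra4: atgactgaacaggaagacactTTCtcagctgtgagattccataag
Klra8: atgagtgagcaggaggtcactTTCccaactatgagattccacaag
Klra7: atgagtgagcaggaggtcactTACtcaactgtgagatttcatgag
Klra9: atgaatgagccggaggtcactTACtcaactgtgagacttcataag
Klra3: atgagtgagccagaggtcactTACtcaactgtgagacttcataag
Klra1: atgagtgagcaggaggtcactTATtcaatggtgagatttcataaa
Klra5: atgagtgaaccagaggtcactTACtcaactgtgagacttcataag
Klra6: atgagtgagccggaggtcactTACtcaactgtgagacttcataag
Klra10: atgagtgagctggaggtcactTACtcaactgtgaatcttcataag
Klra2: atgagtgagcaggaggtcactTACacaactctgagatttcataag
The 8 inhibitory members had TAC or TAT there, both codons for tyrosine, and an ITIM pattern around it. Klra4 and Klra8 had TTC, a codon for phenylalanine, and no ITIM pattern in the first 15 codons. Apart from this codon the starts were close to each other, and over the whole coding sequence Klra9 was 96.88% identical to Klra10 and 95.88% identical to Klra3. Klra8 was closer to the inhibitory Klra9 (91.89%) than to the other activating member Klra4 (78.58%), and Klra4 was closest to Klra1 (88.34%).

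In the GENCODE M21 annotation of GRCm38 all 10 genes lie on the minus strand of chromosome 6. Klra5 (129898996 to 129917650), Klra6 (130013033 to 130026954), Klra4 (130043731 to 130067271), Klra8 (130115226 to 130129898), Klra9 (130178675 to 130193112), Klra7 (130218605 to 130233322), Klra10 (130269194 to 130281928), Klra3 (130323289 to 130337574) and Klra1 (130363917 to 130386874) form a cluster, and Klra2 (131219223 to 131247362) lies apart from it. No exon of a member overlaps another annotated gene. The likeness between members limits how well reads can be assigned, and the reads without a unique position, 11.3% to 13.8% of all reads handled in a library, were not counted on any gene by the authors. Of all 50-base stretches of its exons, Klra10 shared 39.79% with other genes, Klra8 33.13%, Klra9 31.48%, Klra3 20.71% and Klra7 12.30%. Klra4 shared 4.68%, Klra1 2.98%, Klra6 2.62%, Klra5 0.66% and Klra2 none. Klra8 shared most with the pseudogene Klra14-ps, Klra7 with the pseudogene Klra13-ps, and Klra3 and Klra9 with each other. Klra9, whose receptor the sort used, also held 21.45% of the stretches of Klra10 and 10.72% of those of Klra8. How the authors' counting split such reads was not tested, and the values of Klra3, Klra8, Klra9 and Klra10 are uncertain to that extent.

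Libraries held 13287163 to 18875033 reads on genes. NK cell markers were present throughout, with Ncr1, the gene of NKp46, between 463 and 1023 CPM (counts scaled to library size with TMM factors) over all libraries. Summed B cell markers did not exceed 6.13 CPM. Summed macrophage markers had group medians from 18.4 CPM (NKG2A KO Ly49C/I+) to 69.3 CPM (NKG2A+). They reached 268 CPM in NKG2A+ and 358 CPM in WT Ly49C/I+ libraries, and summed neutrophil markers reached 44.3 CPM in WT Ly49C/I+ libraries. The part of such cells in the Ly49 values was not tested. Klrc1, which encodes NKG2A, had a mean of 604 ± 87.1 CPM (SD, n = 9) over the NKG2A+ libraries and at group means between 2.18 and 4.29 CPM in the other 4 groups. Both uneducated and Ly49C/I+ cells were gated as NKG2A-negative in both genotypes, so these counts check the gate and not the deletion. The 37 libraries held no pair with identical counts.

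Klra7, Klra4, Klra8 and, in Ly49C/I+ cells, Klra9 had the highest levels per length of exon sequence. Every member but Klra2, Klra6 and Klra10 reached 5 CPM in all 37 libraries. Klra6 reached it in 33, Klra10 in 14 and Klra2 in 4.

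**Figure D1:**
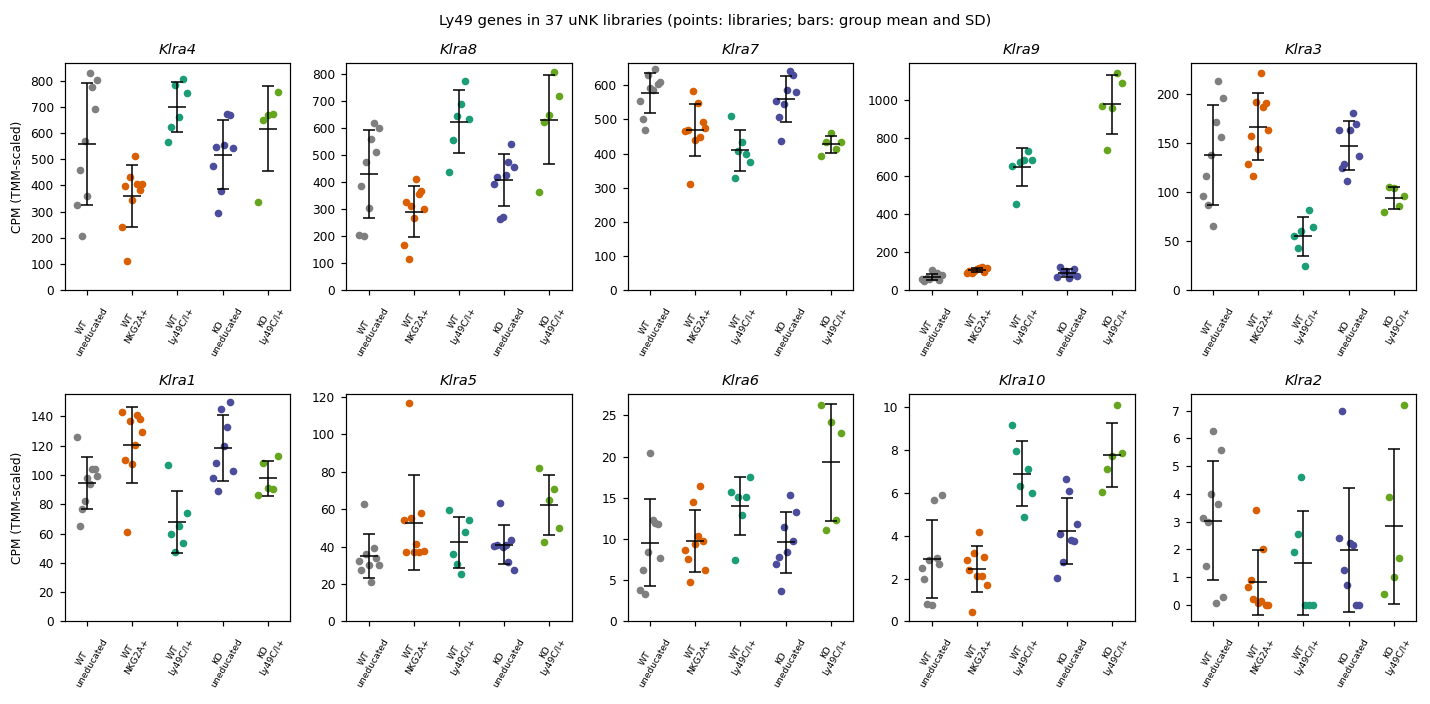
Level of each Ly49 gene (TMM-scaled CPM, linear axes) in the 37 libraries by group, with points for libraries and bars for the group mean and SD. Klra9 was between 452 and 1137 CPM in the 11 Ly49C/I+ libraries and at most 124 CPM in the other libraries, and Klra4 and Klra8 spread widely within groups.

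Klra4, the activating receptor Ly49D, ranged in WT uneducated cells from 206 to 831 CPM (median 571) and in NKG2A+ cells from 111 to 512 CPM (median 397). It ranged from 566 to 805 CPM (median 708) in WT Ly49C/I+ cells and from 296 to 673 CPM (median 545) in NKG2A KO uneducated cells, and was 335, 648, 670, 672 and 758 CPM in the 5 NKG2A KO Ly49C/I+ libraries. The NKG2A+ and WT Ly49C/I+ libraries did not overlap, while the WT uneducated libraries overlapped both groups. Klra8, the activating receptor Ly49H, had the same arrangement. It ranged from 201 to 617 CPM (median 475) in WT uneducated, from 116 to 411 CPM (median 310) in NKG2A+, from 437 to 775 CPM (median 639) in WT Ly49C/I+ and from 265 to 541 CPM (median 423) in NKG2A KO uneducated cells. Its levels in NKG2A KO Ly49C/I+ libraries were 363, 621, 648, 805 and 717 CPM. Again no NKG2A+ library reached the lowest WT Ly49C/I+ library.

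Klra7, the inhibitory receptor Ly49G, varied less within groups than the activating pair. It lay between 469 and 648 CPM (median 591) in WT uneducated and between 435 and 642 CPM (median 567) in NKG2A KO uneducated cells. In NKG2A+ cells it lay between 310 and 582 CPM (median 467), and in WT Ly49C/I+ cells between 329 and 509 CPM (median 403). The 5 NKG2A KO Ly49C/I+ libraries held 394, 435, 459, 412 and 434 CPM. The uneducated groups were thus the higher ones in both genotypes, with overlap in both.

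Klra9 (Ly49I) and Klra3 (Ly49C) encode the receptors used for the sort, so their levels across the Ly49C/I gate are given as a description and not as a finding. Klra9 was between 50.2 and 105 CPM (median 64.5) in WT uneducated, between 91.3 and 121 CPM (median 102) in NKG2A+ and between 63.8 and 124 CPM (median 86.5) in NKG2A KO uneducated cells. It was between 452 and 731 CPM (median 677) in WT Ly49C/I+ cells, and 964, 737, 955, 1137 and 1087 CPM in NKG2A KO Ly49C/I+ cells. The 2 Ly49C/I+ groups therefore did not overlap each other, the highest WT library being just under the lowest NKG2A KO library. The share of all genes without such overlap was not counted, and edgeR called no member between these groups, as given below. Klra3 was lower in cells gated as Ly49C/I+, opposite to Klra9 and to the label of the gate. It was between 24.6 and 81.9 CPM (median 57.8) in WT Ly49C/I+ cells and 80.3, 106, 104, 85.8 and 96.2 CPM in NKG2A KO Ly49C/I+ cells, against 65.8 to 214 CPM (median 138) in WT uneducated and 112 to 181 CPM (median 150) in NKG2A KO uneducated cells. In NKG2A+ cells it was between 117 and 222 CPM (median 163). The ratio of Klra9 to Klra3 per length was 0.58 ± 0.38 (SD, n = 9) in WT uneducated, 0.63 ± 0.11 (SD, n = 9) in NKG2A+ and 0.62 ± 0.23 (SD, n = 8) in NKG2A KO uneducated cells. It was 13.0 ± 6.87 (SD, n = 6) in WT and 10.2 ± 2.41 (SD, n = 5) in NKG2A KO Ly49C/I+ cells. The 2 genes share 50-base stretches, as given above.

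**Figure D2:**
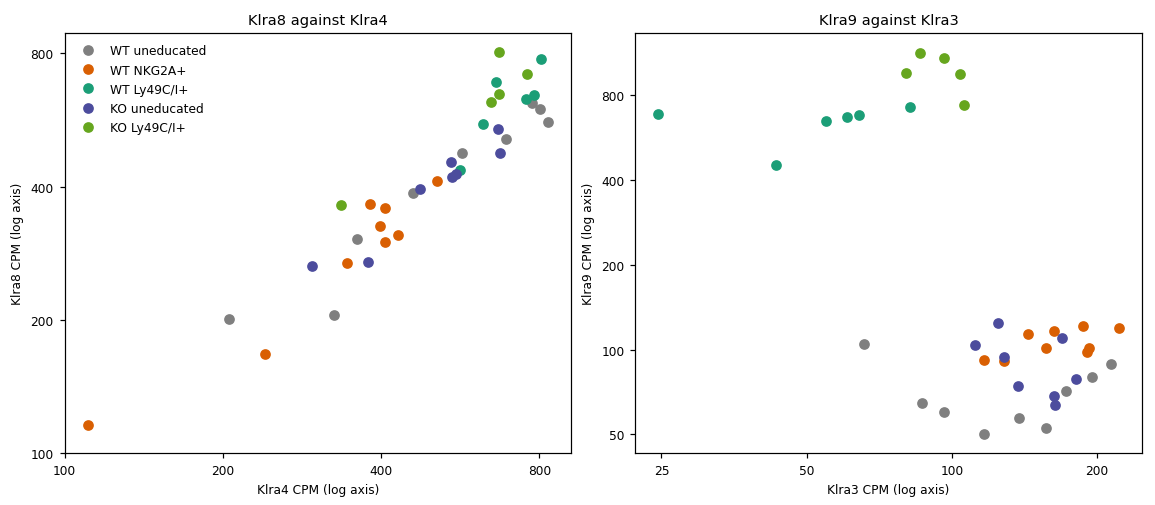
Klra8 against Klra4 (left) and Klra9 against Klra3 (right) in CPM on log axes, 1 point per library coloured by group. Klra8 and Klra4 lie along 1 line through all groups, while Ly49C/I+ libraries stand apart in the right panel with Klra9 above 450 CPM.

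Of the remaining inhibitory members, Klra1 (Ly49A) was at 94.5 ± 17.8 CPM (SD, n = 9) in WT uneducated, 121 ± 25.8 (SD, n = 9) in NKG2A+, 67.8 ± 21.2 (SD, n = 6) in WT Ly49C/I+, 118 ± 22.5 (SD, n = 8) in NKG2A KO uneducated and 97.7 ± 11.9 CPM (SD, n = 5) in NKG2A KO Ly49C/I+ cells. Klra5 (Ly49E), known as the Ly49 receptor of fetal and newborn NK cells, was between group means of 34.8 CPM in WT uneducated and 62.1 CPM in NKG2A KO Ly49C/I+ cells. Klra6 (Ly49F) had group means between 9.55 and 19.3 CPM, Klra10 (Ly49J) between 2.45 and 7.77 CPM and Klra2 (Ly49B), which is known from myeloid cells, between 0.82 and 3.03 CPM. Klra2 had no read in 2 NKG2A+, 3 WT Ly49C/I+ and 2 NKG2A KO uneducated libraries.

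Per length (CPM per kb of exon sequence), the order of the members was Klra7, Klra4, Klra8, Klra3, Klra9, Klra1, Klra5, Klra6, Klra10 and Klra2 in both uneducated groups and in NKG2A+ cells. In WT uneducated cells Klra7 was at 456 ± 46.5 (SD, n = 9), Klra4 at 449 ± 186 (SD, n = 9) and Klra8 at 364 ± 138 CPM per kb (SD, n = 9), and every neighbour in the order overlapped the next. In WT Ly49C/I+ cells the order began with Klra4 at 562 ± 77.0, Klra8 at 528 ± 98.7, Klra9 at 505 ± 76.8 and Klra7 at 323 ± 47.8 CPM per kb (SD, n = 6), each overlapping the next, and a gap separated Klra7 from Klra3 at 44.3 ± 15.7 CPM per kb (SD, n = 6). In NKG2A KO Ly49C/I+ cells Klra9 was first at 763 ± 121 CPM per kb (SD, n = 5), overlapping Klra8 at 536 ± 141 CPM per kb (SD, n = 5). The summed family came to 1526 ± 398 (SD, n = 9) in WT uneducated, 1243 ± 254 (SD, n = 9) in NKG2A+, 2052 ± 222 (SD, n = 6) in WT Ly49C/I+, 1502 ± 249 (SD, n = 8) in NKG2A KO uneducated and 2336 ± 333 CPM per kb (SD, n = 5) in NKG2A KO Ly49C/I+ cells. The sums of Ly49C/I+ cells hold the sorted receptor.

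The activating members made up 51.3% ± 8.98 (SD, n = 9) of the family per length in WT uneducated, 41.9% ± 7.40 (SD, n = 9) in NKG2A+, 53.0% ± 5.00 (SD, n = 6) in WT Ly49C/I+, 49.95% ± 4.85 (SD, n = 8) in NKG2A KO uneducated and 43.5% ± 6.95 (SD, n = 5) in NKG2A KO Ly49C/I+ cells. The share varied most among WT uneducated libraries, from 36.5% to 60.6%, and was lowest in NKG2A+ library 3 at 25.9%. In Ly49C/I+ cells the whole also holds the sorted Klra9. In NKG2A KO mice the summed activating members were at 760 ± 185 CPM per kb in uneducated cells (SD, n = 8). They were at 1031 ± 265 CPM per kb in Ly49C/I+ cells (SD, n = 5), where their share was lower. These shares describe mixed cells and were not tested.

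**Figure D3:**
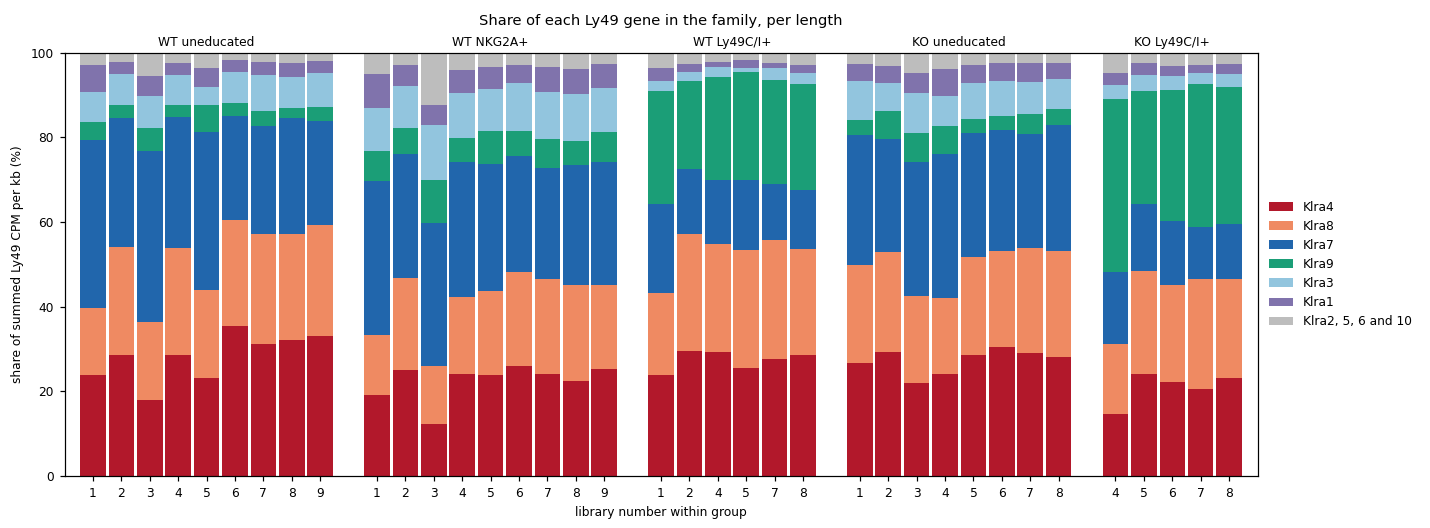
Share (%) of each Ly49 gene in the summed CPM per kb of the 10 members, 1 bar per library with the library number below and groups side by side. Klra4 and Klra8, at the base, together take from 25.9% to 60.6% of a bar, and Klra9 takes at least 20.8% in Ly49C/I+ bars.

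The groups were compared by quasi-likelihood fits in edgeR, with p-values adjusted by Benjamini-Hochberg over all genes tested. In NKG2A+ against uneducated WT cells, which asks what the receptor repertoire is in cells educated by NKG2A, 1 of the 8 members tested was higher and 1 lower. Of all 9339 genes tested, 7.47% were higher and 7.56% lower. Klra9 was higher by 0.60 on the log2 scale (SE 0.13, adjusted p = 0.00364), with 70.0 ± 18.2 CPM in uneducated (SD, n = 9) and 106 ± 11.8 CPM in NKG2A+ cells (SD, n = 9), a difference within cells gated as Ly49C/I-. Klra7 was lower (log2 fold change -0.29, SE 0.09, adjusted p = 0.0445). This call was lost in 18 of 32 alternatives, among them leaving out uneducated library 1, 4, 5, 6, 7, 8 or 9, or NKG2A+ library 1, 2, 3, 5, 7, 8 or 9. The activating members did not pass the test in this fit, which did not use the replicate number. Klra4 had a log2 fold change of -0.63 (SE 0.25, adjusted p = 0.103) and Klra8 of -0.55 (SE 0.23, adjusted p = 0.122). Klra4 passed in 5 of 32 alternatives, among them all groups in the fit (adjusted p = 0.0358), and Klra8 in 2. With the replicate number as a block, described below, both passed (adjusted p = 0.00134 for Klra4 and 0.00141 for Klra8), so their call depended on the model. Klra5 (0.61, SE 0.23, adjusted p = 0.0706) and Klra1 (0.36, SE 0.14, adjusted p = 0.0909) did not pass it either. Klra5 passed in 8 of 32 alternatives, among them the likelihood ratio test (adjusted p = 0.0482), DESeq2 (adjusted p = 0.0458), GC and length offsets (adjusted p = 0.0486) and all groups in the fit (adjusted p = 0.0415), so its call depended on the test. Klra1 passed in 3. The median log2 fold change was 0.16 over the members tested and 0.012 over all genes tested.

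Several values moved with this comparison. Of 8 NK cell markers, Klrk1 (0.71, adjusted p = 9.41e-05), Ncr1 (0.64, adjusted p = 1.27e-06), Klrb1c (0.62, adjusted p = 0.000928) and Tbx21 (0.45, adjusted p = 0.0395) were higher in NKG2A+ cells. Prf1 (-0.69, adjusted p = 0.000294) and Gzmb (-0.68, adjusted p = 0.000184) were lower, beside 7.47% of all genes higher and 7.56% lower. All 5 of 5 genes reported of a list for conventional NK cells (Itga2, S1pr5, Itgam, Klf2 and Cma1) were higher in NKG2A+ cells, and their summed level ran from 149.9 to 401 CPM in uneducated and from 329 to 909 CPM in NKG2A+ libraries. Of 6 genes of a list for tissue-resident NK cells or ILC1, Cd200r1 (log2 fold change 3.29, adjusted p = 0.00089) and Cxcr6 (2.86, adjusted p = 2.68e-05) were higher and Itga1 (-0.36, adjusted p = 0.0222) was lower. Cxcr6 had medians of 11.5 CPM in uneducated and 64.0 CPM in NKG2A+ libraries, and Cd200r1 of 1.80 and 15.1 CPM. The summed level of this list was 204.5 to 408 CPM in uneducated and 253 to 486 CPM in NKG2A+ libraries. Of 7 T cell genes 3 were tested, and Cd3e and Cd3d were higher, Cd3e with medians of 3.04 CPM in uneducated and 13.1 CPM in NKG2A+ libraries. Cd3g, the most abundant of the 7, was not called (-0.13, adjusted p = 0.773). Its medians were 83.4 CPM in uneducated and 76.0 CPM in NKG2A+ libraries. The summed level of the 7 was 39.6 to 154 CPM in uneducated and 72.4 to 181 CPM in NKG2A+ libraries. Prl8a2, a gene of decidual cells, reached 881 CPM in 1 NKG2A+ library and was highest in NKG2A+ libraries 1, 3 and 4. Without these 3, an alternative chosen after seeing the data, Klra4 was at -0.45 (adjusted p = 0.253), Klra8 at -0.35 (adjusted p = 0.363) and Klra5 at 0.25 (adjusted p = 0.467) on the log2 scale. The part of these cells in the Ly49 values was otherwise not tested.

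In Ly49C/I+ against uneducated WT cells, 1 of 8 members tested was higher and 2 were lower, while 4.25% of 9292 genes were higher and 5.05% lower. These member counts include the sorted Klra9 and Klra3, whose calls reflect the gate. Beside the sorted Klra9 (3.21, SE 0.16, adjusted p = 4.62e-10) and Klra3 (-1.32, SE 0.26, adjusted p = 0.00559), Klra7 fell by 0.49 on the log2 scale (SE 0.10, adjusted p = 0.00606), from 576 ± 58.9 CPM in uneducated (SD, n = 9) to 409 ± 60.5 CPM in Ly49C/I+ cells (SD, n = 6). Its call held without each library in turn. Klra8 (0.55, SE 0.22, adjusted p = 0.132), Klra4 (0.34, SE 0.24, adjusted p = 0.408), Klra1 (-0.47, SE 0.17, adjusted p = 0.0895), Klra5 (0.28, SE 0.23, adjusted p = 0.471) and Klra6 (0.54, SE 0.36, adjusted p = 0.382) did not pass the test. Klra1 passed in 4 alternatives, among them all groups in the fit (adjusted p = 0.0462) and leaving out Ly49C/I+ library 1 (adjusted p = 0.0208). Klra8 passed in 3 of 27 alternatives and Klra4 in 2. With the replicate number as a block, described below, Klra8 was at 0.65 (adjusted p = 0.0149) and Klra4 at 0.46 (adjusted p = 0.0337). Klra5 and Klra6 passed in 1 each, the sum of all reads of genes linked to them by shared stretches (1.00, adjusted p = 0.00251). This sum holds the sorted Klra9. That sum was also 1 of the 3 for Klra8. Of the pseudogenes that share stretches with members, Klra13-ps, the partner of Klra7, was higher (0.78, SE 0.20, adjusted p = 0.023), opposite to Klra7, and so was Klra14-ps, the partner of Klra8 (0.65, SE 0.20, adjusted p = 0.0473). With all reads of Klra1, Klra4, Klra7 and Klra13-ps summed, a set linked through shared stretches, the change was 0.080 (adjusted p = 0.762). In this set Klra7 shares stretches with Klra13-ps and Klra1 with Klra4, and 1 stretch of Klra4 and Klra13-ps joins these pairs. None of the 5 conventional NK cell genes passed the test in this comparison, their summed level being 181 to 697 CPM in Ly49C/I+ cells. 3 of the 5 had an unadjusted p under 0.05. None of the 5 tissue-resident genes or the 2 T cell genes tested was called. Of 8 NK cell markers, Prf1 (-0.71, adjusted p = 0.00571) and Gzmb (-0.58, adjusted p = 0.00927) were lower in Ly49C/I+ cells. Tbx21 (0.52, adjusted p = 0.0472) and Klrk1 (0.49, adjusted p = 0.0193) were higher. Their part in the Ly49 values was not tested. The median log2 fold change was 0.31 over the members tested, the sorted Klra9 and Klra3 included, and 0 over all genes tested.

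**Figure D4:**
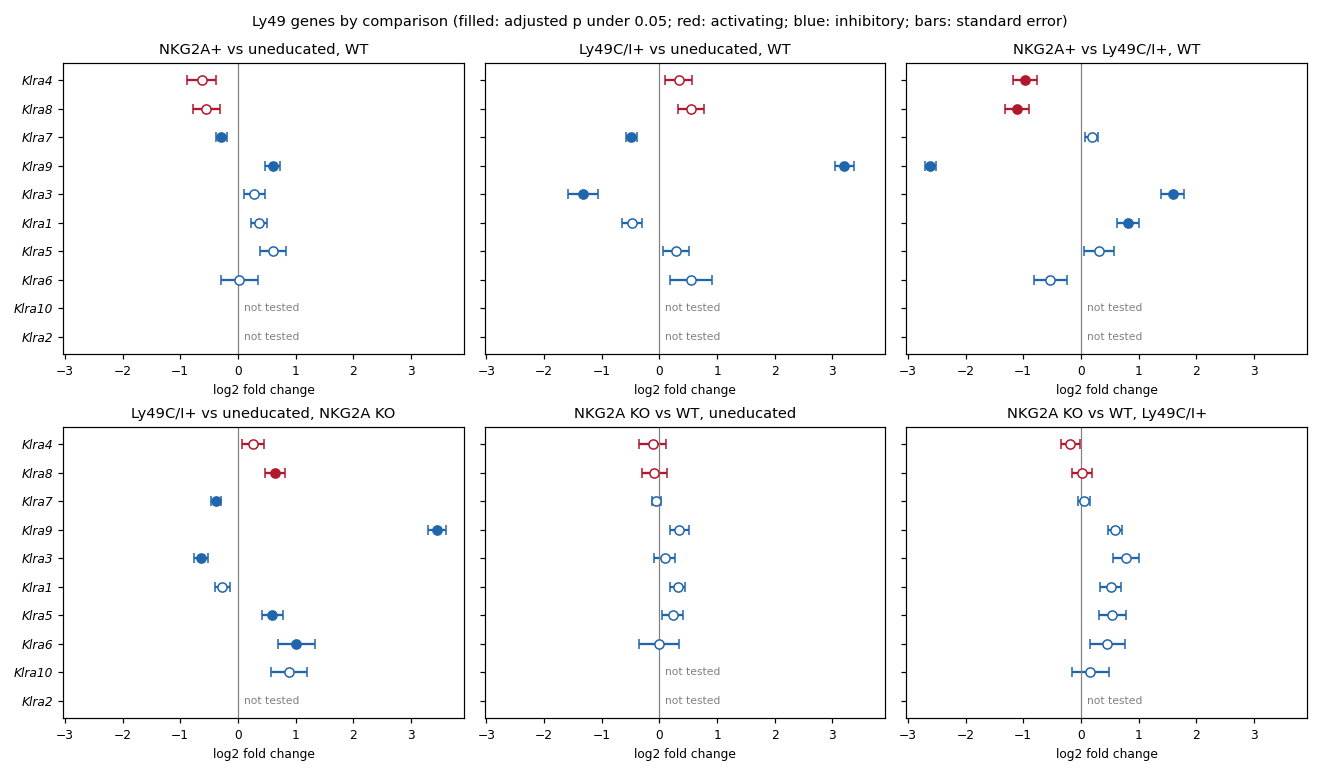
Log2 fold change (horizontal axis) of each Ly49 gene in 6 comparisons, with bars for the standard error. Filled points have an adjusted p under 0.05, red points are the activating Klra4 and Klra8, and the 2 lower right panels, NKG2A KO against WT, hold no filled point.

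NKG2A+ and Ly49C/I+ WT cells, both called educated in the paper, differed in 5 of 8 members tested. Of 9308 genes, 1.31% were higher and 1.42% lower in NKG2A+ cells. The 5 include the sorted Klra9 and Klra3, whose calls reflect the gate, so the count is not a result about the other members alone. Both activating members were lower in NKG2A+ cells. Klra8 was at 291 ± 95.2 CPM in NKG2A+ (SD, n = 9) and 622 ± 116 CPM in Ly49C/I+ cells (SD, n = 6), and its log2 fold change was -1.11 (SE 0.20, adjusted p = 0.0066). Klra4 was at 359 ± 118 CPM in NKG2A+ (SD, n = 9) and 699 ± 95.9 CPM in Ly49C/I+ cells (SD, n = 6), so that its log2 fold change was -0.97 (SE 0.21, adjusted p = 0.0166). The call of Klra8 held in all 28 alternatives and that of Klra4 in 26. Klra4 lost it without the low-count filter (adjusted p = 0.0558) and with all reads of its linked set of 4 genes summed (adjusted p = 0.073). The sum for Klra8 (-1.08, adjusted p = 6.64e-05) holds the sorted Klra9, so it reflects the gate and gives no support for Klra8 itself. Klra8 shares stretches with Klra9, and the part of such reads in its value was not tested. Klra1 was higher in NKG2A+ cells (0.82, SE 0.18, adjusted p = 0.0221), a call that was lost with GC and length offsets (0.65, adjusted p = 0.0968), without the low-count filter (adjusted p = 0.0558) and after leaving out Ly49C/I+ library 2 (adjusted p = 0.0565), 4 (adjusted p = 0.0515) or 7 (adjusted p = 0.0641). With all reads of its linked set summed, the value of Klra1 became that of the sum, -0.44. The sorted Klra9 (-2.61, SE 0.09, adjusted p = 9.08e-13) and Klra3 (1.59, SE 0.20, adjusted p = 0.000284) made up the remainder. Klra7 was at 0.19 (SE 0.11, adjusted p = 0.397). Other markers moved with this comparison. Of 5 tissue-resident genes tested Cxcr6 was higher in NKG2A+ cells (2.14, adjusted p = 0.0146), and Cd200r1 was at 3.02 (adjusted p = 0.0733). The summed level of that list was 253 to 486 CPM in NKG2A+ and 223 to 441 CPM in Ly49C/I+ libraries. Ncr1 was the 1 of 8 NK markers called (0.38, adjusted p = 0.00389). None of the 5 conventional NK cell genes or the 3 T cell genes tested was called, with Cd3e at 1.46 (adjusted p = 0.11) and Cd3d at 0.87 (adjusted p = 0.165), both with an unadjusted p under 0.05. Summed T cell genes were at 72.4 to 181 CPM in NKG2A+ and 79.1 to 184 CPM in Ly49C/I+ libraries. The part of these markers in the Ly49 values was not tested. The 3 comparisons among WT groups share libraries, so their values are not independent. The median log2 fold change was -0.17 over the members tested, the sorted Klra9 and Klra3 included, and -0.001 over all genes tested.

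In mice labelled NKG2A KO, which by their label lack NKG2A, Ly49C/I+ against uneducated cells gave 4 members higher and 2 lower of 9 tested, beside 7.34% of 9299 genes higher and 8.99% lower. The sorted Klra9 and Klra3 are again among these calls. Klra7 fell by 0.39 on the log2 scale (SE 0.09, adjusted p = 0.00694), from 560 ± 66.7 CPM (SD, n = 8) to 427 ± 24.5 CPM (SD, n = 5). Klra8 rose by 0.64 (SE 0.18, adjusted p = 0.0221), from 406 ± 96.1 CPM (SD, n = 8) to 631 ± 166 CPM (SD, n = 5), but not without the low-count filter (adjusted p = 0.0628), with all groups in the fit (adjusted p = 0.0688), or without Ly49C/I+ library 7 (adjusted p = 0.0753) or 8 (adjusted p = 0.0539). Klra4 was at 0.26 (SE 0.19, adjusted p = 0.379). Klra6 rose by 1.01 (SE 0.32, adjusted p = 0.0379) from 9.60 ± 3.74 CPM (SD, n = 8) to 19.3 ± 7.09 CPM (SD, n = 5), a call lost in 14 of 26 alternatives, among them without uneducated library 1, 2, 3, 5 or 7 or Ly49C/I+ library 4, 6 or 8. Klra5 rose by 0.60 (SE 0.19, adjusted p = 0.0378) and lost its call in 11 of 26, among them without uneducated library 1, 2, 5, 6 or 8 or Ly49C/I+ library 4, 6 or 7. The sorted genes were at 3.45 for Klra9 (SE 0.15, adjusted p = 1.99e-10) and -0.64 for Klra3 (SE 0.12, adjusted p = 0.00291). With all groups in the fit the call of Klra3 was lost (adjusted p = 0.0546). Klra10 did not pass the test (0.89, SE 0.31, adjusted p = 0.0575), but passed the likelihood ratio test (adjusted p = 0.0309). Klra8 and Klra10 share stretches with the sorted Klra9, and the part of such reads in their values was not tested. Klra14-ps rose (0.73, SE 0.15, adjusted p = 0.0037), and Klra13-ps was at the threshold (0.55, SE 0.19, adjusted p = 0.0499). With the reads of Klra1, Klra4, Klra7 and Klra13-ps summed, the change was 0.039 (adjusted p = 0.87). Of the 5 conventional NK cell genes 4 rose, with summed levels of 287 to 616 CPM in uneducated and 450.5 to 864 CPM in Ly49C/I+ libraries, and of 5 tissue-resident genes tested Tnfsf10 rose (0.72, adjusted p = 0.00302). Of 8 NK cell markers, Klrb1c (0.51, adjusted p = 0.006), Tbx21 (0.44, adjusted p = 0.00511), Klrk1 (0.42, adjusted p = 0.0218) and Ncr1 (0.33, adjusted p = 0.024) rose. Prf1 (-0.46, adjusted p = 0.0302) and Gzmb (-0.33, adjusted p = 0.0426) fell. The part of these markers in the Ly49 values of NKG2A KO cells was not tested. The median log2 fold change was 0.60 over the members tested, the sorted Klra9 and Klra3 included, and 0.023 over all genes tested.

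Between genotypes edgeR called no member, and 0% of genes in either direction, in uneducated cells (9288 genes tested), in Ly49C/I+ cells (9344 tested) and in the interaction of genotype with the Ly49C/I gate (9322 tested). In uneducated cells 2 of 8 members, Klra1 (0.32, SE 0.13, adjusted p = 0.705) and Klra9 (0.34, SE 0.16, adjusted p = 0.746), had an unadjusted p under 0.05, as did 619 of all genes. The likelihood ratio test and DESeq2 called none of the members. In Ly49C/I+ cells 4 of 9 members had an unadjusted p under 0.05, as did 1001 of all genes, and all 4 were higher in NKG2A KO cells. These were Klra9 (0.59, SE 0.12, adjusted p = 0.139), Klra3 (0.78, SE 0.22, adjusted p = 0.25), Klra1 (0.52, SE 0.19, adjusted p = 0.369) and Klra5 (0.55, SE 0.23, adjusted p = 0.44). Klra9 passed with the likelihood ratio test (adjusted p = 0.0046) and with DESeq2 (adjusted p = 0.000833), and Klra3 with DESeq2 (adjusted p = 0.047), so the call of these receptors depended on the test. The activating members lay near 0, with Klra4 at -0.19 (SE 0.17, adjusted p = 0.726) and Klra8 at 0.013 (SE 0.17, adjusted p = 0.988). The medians were 0.46 over the members and 0.003 over all genes in Ly49C/I+ cells, and 0.042 and -0.01 in uneducated cells. The Ly49C/I+ effect differed most in Klra3 (0.67 higher in NKG2A KO, SE 0.31, adjusted p = 0.998), the 1 of 9 members with an unadjusted p under 0.05, beside 414 of all genes. DESeq2 and the likelihood ratio test called no member there.

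The activating members varied together. After the mean of each group was removed, log2 levels of Klra4 and Klra8 had a Pearson correlation of 0.95 and a Spearman correlation of 0.93 over 37 libraries, and of 0.94 (Pearson) without WT uneducated library 3 and NKG2A+ library 3. Within groups Pearson's r was 0.96 in WT uneducated, 0.96 in NKG2A+, 0.85 in WT Ly49C/I+ and 0.96 in NKG2A KO uneducated cells. The coding sequences of this pair are 78.58% identical and they shared no 50-base stretch. Among 9286 genes, those with the pattern most like that of Klra4 were Klra8, Klra14-ps (r = 0.91) and Klri2 (r = 0.79), which encodes another NK lectin-like receptor. For Klra8 they were Klra4, Klra14-ps (r = 0.91), with which it shares 20.37% of its stretches, and Cant1 (r = 0.81). These are descriptions over libraries that share groups, preparation and library composition.

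Promoters of these paired genes are shown because their levels moved together. They are the 250 bases before the annotated start in RefSeq (GRCm38.p6), written 5′ to 3′ on the minus strand, at chr6:130067272-130067521 for Klra4 and chr6:130129899-130130148 for Klra8, and capitals mark a match to GCANTTTCCTC.
Klra4 promoter: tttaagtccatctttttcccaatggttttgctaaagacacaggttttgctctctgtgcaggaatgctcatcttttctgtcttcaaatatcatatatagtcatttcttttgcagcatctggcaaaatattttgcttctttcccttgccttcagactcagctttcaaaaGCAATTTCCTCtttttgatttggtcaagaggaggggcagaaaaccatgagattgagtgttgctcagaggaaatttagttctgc
Klra8 promoter: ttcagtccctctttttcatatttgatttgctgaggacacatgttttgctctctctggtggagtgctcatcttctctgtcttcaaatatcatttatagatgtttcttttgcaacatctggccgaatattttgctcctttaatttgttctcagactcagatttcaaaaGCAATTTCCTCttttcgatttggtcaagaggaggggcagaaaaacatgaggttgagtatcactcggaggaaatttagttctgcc
This pattern was found by searching the Ly49 windows themselves for 11 letters with 1 free place that most of them hold. Among patterns in equally many Ly49 genes, the rule took that in the fewest windows of all genes, so its rarity was in part selected. Searched on both strands, the pattern was in 9 of 11 Ly49 genes with a window (Klra2 to Klra9 and Klra17, but not Klra1 or Klra10). It was in 38 of 32851 windows of all genes (0.1157%), the Ly49 windows included. It therefore sets Klra4 and Klra8 apart from no other of these 9, and a match is a description of letters.

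The other members had weaker partners. Klra3 was most like Tspan13 (r = 0.80), Txnip (r = 0.79) and March2 (r = 0.78) over the 37 libraries, and had r = 0.70 with Klra4 and r = -0.019 with Klra9. Klra9 was most like Dguok (r = 0.70), AW112010 (r = 0.68) and Tmco1 (r = 0.63). Klra7 was most like Klrc2 (r = 0.72), Klra4 (r = 0.69) and Klra1 (r = 0.68). For Klra1 the first were Klra7 (r = 0.68), Poll (r = 0.59) and Klrc2 (r = 0.57), and the first value was 0.48 without WT Ly49C/I+ library 1 and NKG2A+ library 3. For Klra6 they were Tnfsf9, Cd37 and Btg1 (r = 0.71 each), and for Klra5 Psmd5 (r = 0.65), Cldnd1 (r = 0.63) and Cd226 (r = 0.62).

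Klra5 stood out by library number. The highest Klra5 level of its group was in library 3 in WT uneducated (62.9 CPM), NKG2A+ (117 CPM) and NKG2A KO uneducated cells (63.5 CPM), the 3 groups that have a library of this number. In the same libraries Klra4 was the lowest of its group, at 206, 111 and 296 CPM, and so was Klra8, at 201, 116 and 265 CPM. In NKG2A KO Ly49C/I+ cells, which have no library 3, Klra5 was highest (82.1 CPM) and Klra4 (335 CPM) and Klra8 (363 CPM) were lowest in library 4. The residual correlation of Klra4 with Klra5 was -0.64 (Pearson) and -0.32 (Spearman), and -0.37 (Pearson) without WT uneducated and NKG2A+ libraries 3, so that it rested in large part on these. The labels do not say what a shared number stands for, and the part of a batch in these values was not tested. Without all libraries numbered 3, an alternative chosen after seeing the data, NKG2A+ against uneducated WT cells gave 5 members called in place of 2. Klra4 then fell by 0.62 (adjusted p = 0.0338) on the log2 scale, and Klra5 (0.53, adjusted p = 0.0299) and Klra1 (0.41, adjusted p = 0.0255) rose, beside Klra7 and Klra9. Without WT uneducated library 3 alone 4 members were called, Klra4 (adjusted p = 0.0404) and Klra5 (adjusted p = 0.0222) being the added ones, and without NKG2A+ library 3 alone Klra1 was called (adjusted p = 0.0114).

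**Figure D5:**
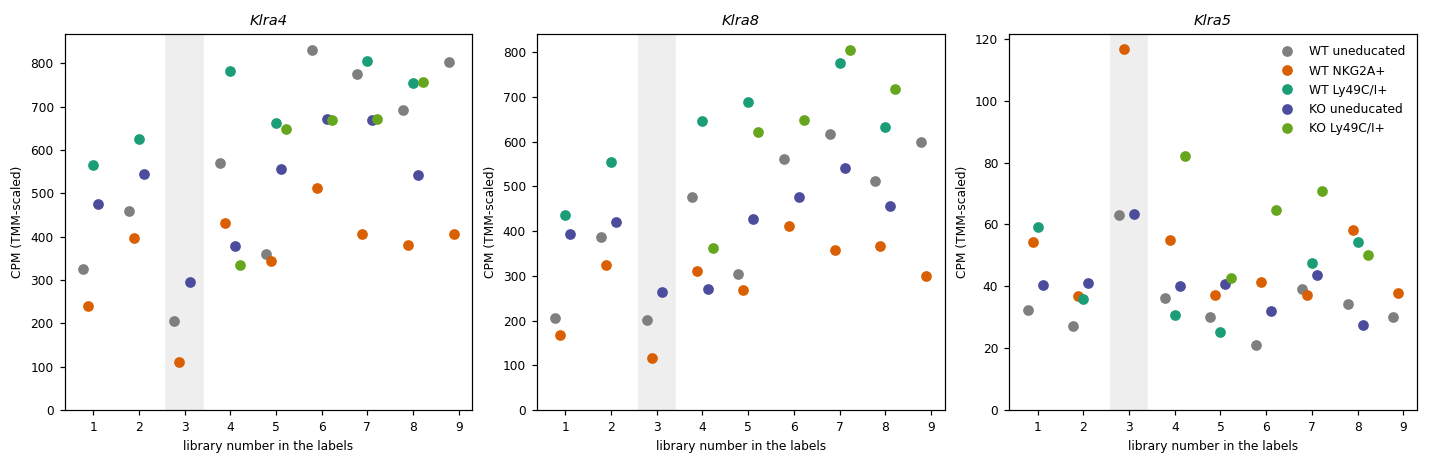
CPM of Klra4, Klra8 and Klra5 by the library number in the labels, coloured by group with small horizontal offsets. The shaded column marks number 3, where Klra4 and Klra8 are the lowest and Klra5 the highest of each of the 3 groups that have it.

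The genes through which Ly49 receptors signal were taken as a list of 21, holding adaptors, kinases, phosphatases and MHC class I ligands, of which 20 were tested. In NKG2A+ against uneducated WT cells 8 were higher and 1 lower, beside 7.47% and 7.56% of all genes, led by Lck (0.74, adjusted p = 0.00118) and Lat (0.73, adjusted p = 0.00292), a kinase and an adaptor of the proximal pathway, Ptprc (0.46, adjusted p = 3.34e-05), the phosphatase CD45, and Fyn (0.46, adjusted p = 0.0115). In Ly49C/I+ against uneducated WT cells 4 were higher and 1 lower, beside 4.25% and 5.05% of all genes. Ptpn11, which encodes the phosphatase SHP-2, was lower (-0.72, adjusted p = 0.0409), and Lck (0.63, adjusted p = 0.0193), Inpp5d (0.57, adjusted p = 0.0257), the phosphatase SHIP-1, and H2-K1 (0.40, adjusted p = 0.0175), a ligand, were higher. NKG2A+ and Ly49C/I+ cells differed in Ptprc alone of the 20 (0.21, adjusted p = 0.0436), beside 2.73% of all genes called in either direction. In NKG2A KO mice 9 were higher in Ly49C/I+ cells and none lower, beside 7.34% and 8.99% of all genes, led by Klrd1 (0.50, adjusted p = 0.00288), the partner chain of NKG2A, Hcst (0.49, adjusted p = 0.00291), the adaptor DAP10, Lck (0.49, adjusted p = 0.00475) and Syk (0.44, adjusted p = 0.0372). Tyrobp, the adaptor of the activating receptors, was called in none of these comparisons. It was at 0.033 in NKG2A+ against uneducated cells (adjusted p = 0.861) and at 0.25 in Ly49C/I+ against uneducated WT cells (adjusted p = 0.145). It was at -0.23 in NKG2A+ against Ly49C/I+ cells (adjusted p = 0.0851) and at 0.26 in Ly49C/I+ cells of NKG2A KO mice (adjusted p = 0.0579). All but the first had an unadjusted p under 0.05. The median log2 fold change of the list was 0.30, 0.24, -0.0008 and 0.26 in these 4 comparisons, in that order, and that of all genes tested 0.012, 0, -0.001 and 0.023.

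Of 10 transcription factors known for Ly49 or NK receptor acquisition, all were tested. Ets1 (0.68, adjusted p = 0.000154) and Tbx21 (0.45, adjusted p = 0.0395) were higher in NKG2A+ than in uneducated WT cells, 2 of 10 beside 15% of all genes called in either direction, so that this count is near the background. In Ly49C/I+ WT cells Tbx21 (0.52, adjusted p = 0.0472) and Ets1 (0.45, adjusted p = 0.02) were higher and Lef1 (-0.97, adjusted p = 0.00864) was lower, and the same 3 passed in NKG2A KO mice, with Tbx21 at 0.44 (adjusted p = 0.00511), Ets1 at 0.37 (adjusted p = 0.0285) and Lef1 at -0.92 (adjusted p = 0.00296). These were 3 of 10 beside 9.3% of all genes in WT and 16.3% in NKG2A KO mice. In NKG2A+ against Ly49C/I+ cells Lef1 was the 1 of 10 called, higher in NKG2A+ (0.98, adjusted p = 0.0173), beside 2.73% of all genes. No gene of either list was called between genotypes by edgeR, with 2 of 20 signalling genes at an unadjusted p under 0.05 in each of the uneducated and Ly49C/I+ comparisons, and 1 and 3 of 10 transcription factors.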

How the data were processed

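RNA of sorted uNK cells was amplified with a SMART-Seq v4 kit and made into Nextera XT libraries. Per the labels and the paper's methods, the authors trimmed reads with Trim Galore 0.5.0, mapped them with STAR 2.7.1 to GRCm38 and deposited, for each library, a raw, unnormalized count of reads for every one of 53700 Ensembl genes. The sources used here name neither the program that counted the reads nor its use of strand. The 5 summary lines of each file (2.69% to 6.83% of reads on no gene, 4.04% to 4.60% ambiguous, 11.3% to 13.8% not unique) were left out. No molecular identifiers were used, so depth (13287163 to 18875033 reads) bounds counting error only.

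Groups were taken from the labels. Numbers of WT Ly49C/I+ libraries (1, 2, 4, 5, 7 and 8) follow the description lines, from which some titles differ. CPM were scaled by TMM factors over 37 libraries. Tests used edgeR 4.0.16 (quasi-likelihood, R 4.3.3) on genes that reached 5 CPM in a share of 0.5 or more of the compared libraries, with only the compared groups in the fit and an adjusted p threshold of 0.05. Log2 fold changes are given with standard errors. The authors also corrected for GC content and length with CQN, which was not run here. GC and length offsets from splines with 5 degrees of freedom were tried instead. Other alternatives were DESeq2 1.42.0, the likelihood ratio test, RLE factors, library totals, other filters and all groups in the fit. The replicate number as a block, all reads of genes linked by shared stretches summed, and leaving out libraries were also tried. Residual correlations used log2(CPM + 1). Positions, lengths and symbols (for 52093 genes) came from GENCODE M21, and promoters from RefSeq. All 10 members and the 20 to 21 pathway genes are named by rule, the lists' up to 4 largest called changes by size. The members and lists were chosen with earlier results of these data known. 1 gene of the list for conventional NK cells is not reported here. The scripts were tested on simulated counts.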

Additional observations from a re-analysis of the deposited data

Results flagged for a closer look

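Each member's level was examined in each of the 5 groups for a single library far from the rest, by Dixon's ratio of gap to range. Of 50 sets of libraries, 7 passed, where chance alone flags about 1 in 20. Klra5 passed in 3 groups, with the highest value in library 3 each time. It was 62.9 CPM in WT uneducated library 3 (next 39.0 CPM), 117 CPM in NKG2A+ library 3 (next 58.1 CPM) and 63.5 CPM in NKG2A KO uneducated library 3 (next 43.6 CPM). Klra1 was lowest in NKG2A+ library 3 at 61.2 CPM, with the next library at 107 CPM. Klra4 was lowest in NKG2A KO Ly49C/I+ library 4 at 335 CPM, with the next at 648 CPM. Klra9 was lowest in WT Ly49C/I+ library 2 at 452 CPM, with the next at 651 CPM. Klra2 was highest in NKG2A KO uneducated library 2 at 6.97 CPM, with the next at 2.42 CPM. Their causes were not tested.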

How the results depend on the processing

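In all, 1474 values were computed under alternatives for 59 log2 fold changes of members. Of these, 1326 kept their direction and side of the threshold, and 55 lost and 36 gained a call in the same direction. A further 57 changed sign. Of the 57, 49 were called neither before nor under the alternative and lay between -0.44 and 0.32 there. Of these 49, 15 came with all reads of linked genes summed. Klra5 in NKG2A+ against Ly49C/I+ cells was one of the 49, at -0.037 without NKG2A+ libraries 1, 3 and 4. The other 8 were called in one fit or both, and each came from summing the reads of genes that share stretches. That setting replaces the members of a set by 1 sum, so that the sum carries the most abundant genes. It gave -0.0725 in place of the rise of Klra9 in NKG2A+ against uneducated cells, 1.00 (WT) and 1.31 (NKG2A KO) in place of the fall of Klra3 in Ly49C/I+ cells, 0.0798 and 0.0392 in place of the fall of Klra7, -0.44 for Klra1 and -1.08 for Klra3 and Klra5 in NKG2A+ against Ly49C/I+ cells.

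The count of members called in NKG2A+ against uneducated WT cells was 2. It was 1 without the low-count filter, with library totals only and without libraries numbered 5, and 4 with all groups in the fit. It was 5 without libraries numbered 3, and 1 to 4 with a library left out. In Ly49C/I+ against uneducated WT cells it was 3, and 3 to 4 with a library left out. In NKG2A+ against Ly49C/I+ cells it was 5, 3 without the filter and 4 to 5 with a library left out. In NKG2A KO mice it was 6, 3 without the filter, 3 with all groups in the fit and 4 to 7 with a library left out. Between genotypes in Ly49C/I+ cells it was 0, 1 with the likelihood ratio test and 2 with DESeq2. Genes called in NKG2A+ against uneducated WT cells, 1404 in the main fit, moved as well. They were 972 to 1754 over the other settings, the block described below among them, and 1118 to 1687 with a library left out. Those of the other comparisons are given below. Member counts alone therefore do not separate a shift in the members from a shift over all genes. The cause of these shifts was not tested. Across the Ly49C/I gate the member counts also include the sorted Klra9 and Klra3 where these were called.

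With the replicate number as a block, the count was 6 in NKG2A+ against uneducated cells (5 with GC and length offsets) and 6 in Ly49C/I+ against uneducated WT cells (6 with the offsets). Klra4 (-0.60, adjusted p = 0.00134) and Klra8 (-0.53, adjusted p = 0.00141) were called with the block in the first comparison, beside Klra1 and Klra5, and in the second Klra4 (0.46, adjusted p = 0.0337), Klra8 (0.65, adjusted p = 0.0149) and Klra1 (-0.53, adjusted p = 0.0398). In NKG2A KO mice Klra6 was not called with it (0.68, adjusted p = 0.156). The numbers were not taken to pair libraries, since the labels do not say so. Deviations of same-number libraries had median correlations of 0.098, 0.127, 0.084 and 0.042 in the 4 within-genotype comparisons (lowest -0.028, 0.075, 0.036 and 0.024). Those of libraries with other numbers had medians of 0.002, -0.022, -0.012 and -0.007 in the same order. A library matched its own number best in 5 of 9, 6 of 6, 6 of 6 and 3 of 5 cases. Between genotypes it did so in 1 of 8 cases in uneducated and 1 of 4 in Ly49C/I+ cells. Whether same numbers within a genotype share an origin is not given by the labels, and the main fit did not allow for it. The calls of Klra4 and Klra8 against uneducated WT cells thus depended on whether the number was used.

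Genes called, 864 in Ly49C/I+ against uneducated WT cells, were 451 without the filter, 1528 with all groups, 534 without libraries numbered 3, and 461 to 1234 with a library left out (uneducated 1, 3 or 4 and Ly49C/I+ 5 or 7 moving them by over 1.5 times). The 254 of NKG2A+ against Ly49C/I+ cells were 104 without the filter, 442 with the likelihood ratio test, 558 with DESeq2, 159 with offsets, 165 with block and offsets, 78 without NKG2A+ libraries 1, 3 and 4, and 147 to 306 with a library left out (NKG2A+ 2 or 8 and Ly49C/I+ 2, 5 or 7 moving them as far). The 1519 of NKG2A KO mice were 889 without the filter, 759 with the block, 616 with block and offsets, and 967 to 1763 with a library left out (Ly49C/I+ 4 moving them as far). Without that library and uneducated library 3, chosen after seeing the data, 710 genes and 5 members were called there. The 0 between genotypes became 1 in uneducated cells (likelihood ratio test and DESeq2), 1 in the interaction (DESeq2), and in Ly49C/I+ cells 62 (likelihood ratio test), 118 (DESeq2), 18 (all groups) and 0 to 15 with a library left out. Per longest transcript, Klra7 moved to 522 and 506.9 CPM per kb in uneducated WT and NKG2A KO cells and to 387 in NKG2A KO Ly49C/I+ cells.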

Other observations

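Outside the 10 members, 4 further genes named Klra were counted. Klra13-ps and Klra14-ps are annotated as transcribed pseudogenes. Klra13-ps was at 175 ± 58.9 CPM in WT uneducated (SD, n = 9), 144 ± 41.3 CPM in NKG2A+ (SD, n = 9), 299 ± 51.3 CPM in WT Ly49C/I+ (SD, n = 6), 186 ± 53.1 CPM in NKG2A KO uneducated (SD, n = 8) and 271 ± 45.6 CPM in NKG2A KO Ly49C/I+ cells (SD, n = 5). It was lower in NKG2A+ than in WT Ly49C/I+ cells (log2 fold change -1.07, SE 0.17, edgeR adjusted p = 0.00316). Klra14-ps had group means from 70.0 to 128 CPM. Klra11-ps and Klra17 (Ly49Q, known from plasmacytoid dendritic cells) had group means of at most 3.29 and 0.80 CPM.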
